A study of Mus musculus with 4 samples.

Results

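The genes described here encode the enzymes that write and erase methylation of lysine 4 of histone H3 (H3K4). The list was set by name and holds 5 KMT2 and SETD1 methyltransferase genes besides Kmt2a, the SETD1 targeting subunit gene Cxxc1 and the demethylase genes Kdm1a, Kdm1b and Kdm5b. Of the 10 genes of the list, 9 are among the 16861 genes listed in the libraries, and Kmt2a was not analysed here. They were compared between fully grown germinal vesicle (GV) oocytes of non-surrounded nucleolus (NSN) configuration, in which the chromatin is dispersed, and of surrounded nucleolus (SN) configuration, in which it forms a ring around the nucleolus. The oocytes came from 3-week-old female C57BL/6J mice, for which no genetic change or treatment was named in either group. They were freed of cumulus cells by pipetting. In both groups they were stained with Hoechst in medium containing milrinone and sorted under brief ultraviolet light. There were 4 Smart-seq2 libraries, 2 per configuration, each from 15 pooled oocytes. Nothing in the labels says whether the pools came from separate mice, so p-values measure only the spread between these libraries, which may be technical.

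Methylation of H3K4 marks promoters and enhancers. SETD1A and SETD1B act in complexes that CXXC1 directs to unmethylated CpG, KMT2B is the enzyme known for the broad transcription-independent H3K4 trimethylation that growing oocytes lay down, and KMT2C and KMT2D mainly monomethylate enhancers. All of these enzymes work on a shared core of WDR5, RBBP5, ASH2L and DPY30. In the other direction, KDM1A and KDM1B remove mono- and dimethyl groups by amine oxidation, and KDM5B removes di- and trimethyl groups. KDM1B is known in oocytes for clearing H3K4 methylation from sites that acquire maternal DNA methylation, including imprinted loci. The NSN-to-SN transition is known as the time when the oocyte stops transcribing, and its RNA pool afterwards changes mainly by decay.

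The promoters of the 3 genes with the largest differences between configurations are printed because CpG, the dinucleotide that the CXXC domains of CXXC1 and KMT2B recognise, is dense in all of them. Each is the 250 bases upstream of the gene's start in RefSeq (build GRCm38.p6), written 5′ to 3′ on the gene's strand with every CG in capitals. The windows lie at chr13:47043249-47043498 on the plus strand for Kdm1b, chr4:136602724-136602973 on the minus strand for Kdm1a and chr5:25498784-25499033 on the minus strand for Kmt2c.
Kdm1b: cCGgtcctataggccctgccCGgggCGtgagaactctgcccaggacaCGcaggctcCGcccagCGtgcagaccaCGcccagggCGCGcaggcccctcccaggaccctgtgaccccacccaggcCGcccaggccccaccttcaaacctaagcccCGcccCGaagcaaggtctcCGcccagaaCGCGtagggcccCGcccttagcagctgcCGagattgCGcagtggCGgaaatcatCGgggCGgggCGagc
Kdm1a: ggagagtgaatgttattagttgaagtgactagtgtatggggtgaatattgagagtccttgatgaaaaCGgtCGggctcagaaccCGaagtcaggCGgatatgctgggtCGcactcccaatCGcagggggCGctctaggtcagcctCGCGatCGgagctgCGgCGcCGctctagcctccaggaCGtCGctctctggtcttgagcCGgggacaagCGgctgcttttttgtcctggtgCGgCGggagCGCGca
Kmt2c: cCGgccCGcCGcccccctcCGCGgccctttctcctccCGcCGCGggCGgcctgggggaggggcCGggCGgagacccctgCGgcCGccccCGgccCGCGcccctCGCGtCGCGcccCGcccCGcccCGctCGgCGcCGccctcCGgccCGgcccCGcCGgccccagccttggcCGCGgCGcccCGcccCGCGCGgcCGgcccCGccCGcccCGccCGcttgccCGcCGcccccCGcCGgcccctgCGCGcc
The Kdm1b window holds 22 CG, a number that 14.8% of the 32851 RefSeq mouse promoters of this length reach. There are 21 CG in the Kdm1a window, reached by 16.3%, and 48 CG in the Kmt2c window, reached by 0.186%. The median promoter holds 6, and the 7 of the 10 listed genes with a RefSeq promoter hold 13 to 48. CG reads the same on both strands, and its count describes the letters only, since no binding or methylation was measured in these RNA libraries.

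Libraries of 17069772 to 17998361 read pairs lay behind the values. They are given as FPKM, the read pairs on a gene scaled by its length and by the total of its library, on which scale 3 read pairs per kb amount to 0.167 to 0.176. Since FPKM are relative, a smaller share of the library and less RNA per oocyte cannot be told apart, nor can fewer cells of a type and less RNA in each. Log2(FPKM + 0.5) of the 11672 genes whose mean FPKM reached 0.5 was compared with limma, and a call needed a change of 1.2-fold or more with a p below 0.05 after Benjamini-Hochberg adjustment. This called 926 genes (7.93%), 695 higher in SN (5.95%) and 231 lower (1.98%), but 0 without NSN replicate 1 (2278 with an unadjusted p under 0.05), 1685 without NSN replicate 2, 148 without SN replicate 1 and 11 without SN replicate 2. The median gene was 0.14 higher in SN on the log2 scale. Once libraries were scaled to a common median, 257 genes (2.20%) were called, of which 30.4% were higher against 75.1% before. The summed FPKM of 14 oocyte markers, led by Zp3 of the zona pellucida, was 26800 and 24900 in NSN and 18200 and 17600 in SN. All 14 had lower means in SN, and 10 of the 14 were called lower. Of 15 cumulus and granulosa cell markers, 11 were listed with a sum of 9.65 in NSN replicate 1 and 14.0 to 14.3 in the other 3 libraries, most of it from the aromatase gene Cyp19a1 (5.81 to 8.38), and 7 of the 11 were below 1 FPKM in every library. The other 4 and all 6 blood and immune cell markers were not analysed here.

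Among the demethylases, Kdm1b fell from a mean of 25.9 to 12.8 FPKM, while the mean of its paralogue Kdm1a was higher in SN without passing the test. The methyltransferase with the highest level, Kmt2c, also had a higher mean in SN that did not pass, and Kmt2b, Kmt2d, Setd1a, Cxxc1 and Kdm5b differed by at most 0.13 on the log2 scale. Of the 8 genes tested, 1 was called, lower in SN, beside 7.93% of all genes in either direction and 1.98% lower. The SN libraries lay on one side of both NSN libraries for 4 of the 8, Kmt2c, Kdm1a, Kdm1b and Kdm5b, beside 62.6% of all genes. The median log2 fold change of the 8 was 0.07, against 0.14 over all genes tested, with 6 means higher and 2 lower in SN.

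**Figure D1:**
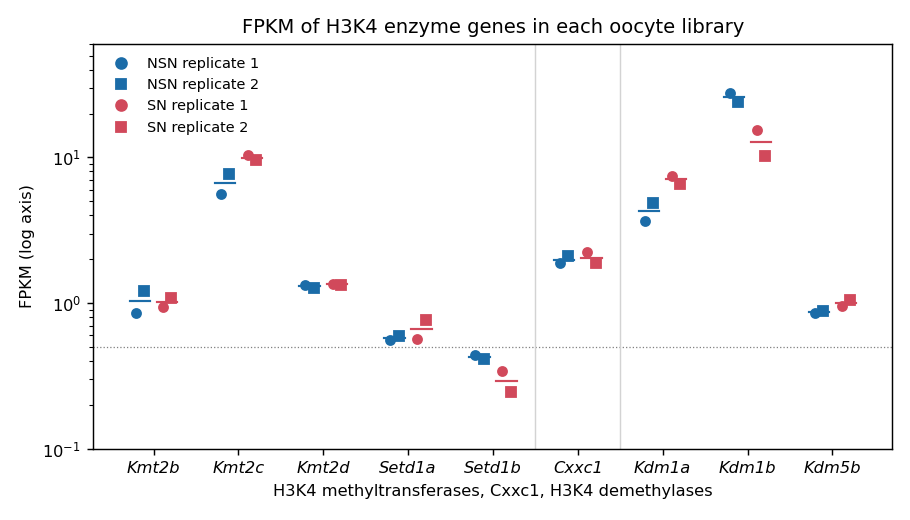
FPKM (log axis) of the 9 listed genes in each library, with NSN in blue, SN in red, circles for replicate 1, squares for replicate 2 and bars for the mean of 2. Kdm1b falls from 27.7 and 24.1 to 15.5 and 10.2, Kmt2c and Kdm1a lie higher in both SN libraries, and Setd1b lies under the dotted line at 0.5, below which a mean was not tested.

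Kdm1b (ENSMUSG00000038080.19) lies on the plus strand of chromosome 13 at 47196713-47241312 in GRCm39, the build of the deposited values. Its FPKM was 27.7 and 24.1 in NSN and 15.5 and 10.2 in SN, from 2402, 2151, 1318 and 912 read pairs. The groups did not overlap, and the SN libraries differed from each other more than the NSN libraries did. The mean went from 25.9 ± 2.54 to 12.8 ± 3.76 (SD, n = 2), a log2 fold change of -1.01 (SE 0.193), the 63rd largest fall of the 11672 genes tested (limma, adjusted p = 0.0406). After median scaling the fall was -1.16 (limma, adjusted p = 0.0489). Without NSN replicate 1 the value was -0.91 and without SN replicate 2 it was -0.72, and the call was lost in both fits. Those fits leave a lone library in a group and called few or no genes at all. They cannot show whether the call of Kdm1b rests on those libraries. The range over 20 alternatives was -1.30 to -0.72, with an adjusted p of 0.000952 to 0.0935 by limma that was under 0.05 in 13 of them. It missed the threshold with all libraries in 5 of them, at an adjusted p of 0.0507 to 0.0921 by limma.

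The annotated exons of Kdm1b share 22.8% of their bases with Dek and Tpmt. Read pairs were counted without strand, so pairs on the shared bases cannot be assigned to any of the 3 genes. Dek, a chromatin protein gene, had 38.4 ± 2.27 FPKM in NSN and 56.1 ± 4.56 in SN (SD, n = 2) and rose by 0.54 on the log2 scale (limma, adjusted p = 0.0381). Tpmt, which encodes thiopurine methyltransferase, had means of 31.4 and 36.4 FPKM (limma, adjusted p = 0.247). Whether pairs on the shared bases had a part in the fall of Kdm1b was not tested.

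Kdm1a (ENSMUSG00000036940.17; chromosome 4, 136277846-136330106, minus strand) encodes the demethylase of the CoREST complex. It had 3.65 and 4.88 FPKM in NSN and 7.49 and 6.61 in SN, from 195, 268, 392 and 365 read pairs. Both SN values were above both NSN values, and NSN replicate 1 was the lowest, as it was for the cumulus cell markers, whose part in the difference was not tested. The means were 4.26 ± 0.867 and 7.05 ± 0.619 (SD, n = 2), with a log2 fold change of 0.67 (SE 0.162) that missed the threshold (limma, adjusted p = 0.0533). It passed in 5 of 20 alternatives, among them the fit without NSN replicate 2 (0.86, limma adjusted p = 0.0178), whereas without NSN replicate 1 it was 0.49 (limma, adjusted p = 0.16), and median scaling brought it to 0.53 (limma, adjusted p = 0.0854). Exons of Luzp1, which had 15.8 FPKM in NSN and 13.7 in SN (limma, adjusted p = 0.195), share 11.3% of the Kdm1a exonic bases.

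Kdm5b (ENSMUSG00000042207.19; chromosome 1, 134487875-134563030, plus strand), the trimethyl demethylase of the list, was low in every library, with 0.856 and 0.886 FPKM in NSN and 0.962 and 1.05 in SN from 137 to 173 read pairs. The groups were adjacent without overlap, and the difference of 0.13 (SE 0.168) was close to that of the median gene (limma, adjusted p = 0.617).

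The make-up of the demethylase transcripts lay apart in the configurations. Within a library, Kdm1b exceeded Kdm1a by 7.58 and 4.94 times in NSN and by 2.07 and 1.54 times in SN. This ratio, which does not depend on how a library is scaled, was lower in SN by 1.78 on the log2 scale, or 3.43-fold on the geometric mean, and by 1.47 to 2.09 when any of the libraries was left out. With 2 libraries against 2 the exact permutation test cannot go below p = 0.333, the two-sided value of this ratio and of the other 4 ratios computed, so none can pass. Kdm1b made up 83.3 ± 3.75% of the summed FPKM of the 3 demethylase genes in NSN and 60.9 ± 5.42% in SN (SD, n = 2), and Kdm1a 13.8 ± 3.53% and 34.2 ± 4.12%. The part of Kdm5b was 2.81 ± 0.219% and 4.94 ± 1.31%. Its ratio to Kdm1a was 0.234 and 0.182 in NSN and 0.128 and 0.158 in SN.

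**Figure D2:**
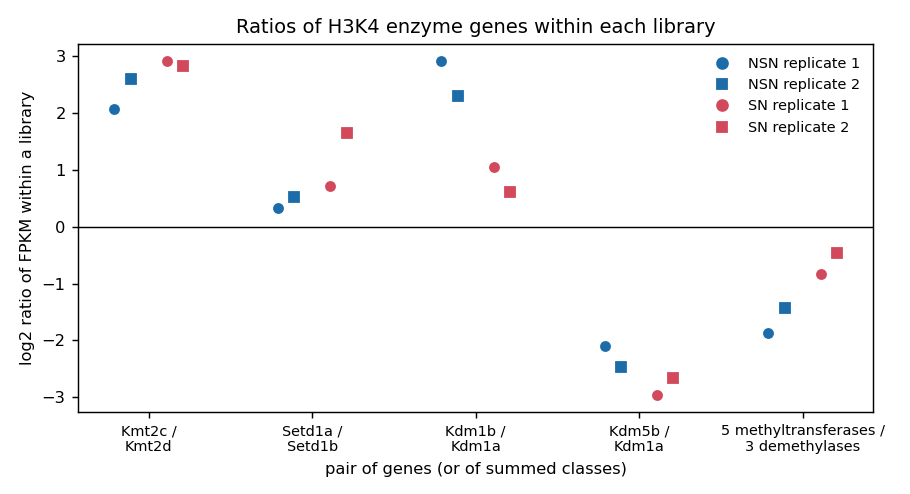
Log2 ratio of the FPKM of related genes, or of the summed FPKM of the 5 methyltransferase and 3 demethylase genes, within each library (colours and symbols per library as in the legend; the line marks equal levels). The SN libraries lie apart from the NSN libraries in all 5 ratios, farthest for Kdm1b over Kdm1a, which drops from 2.92 and 2.30 to 1.05 and 0.62. The ratios share genes, among them Kdm1a, Kdm1b and Kmt2c, and are not independent. Of single genes tested, 62.6% lie apart in this way.

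Kmt2c (ENSMUSG00000038056.17; chromosome 5, 25476796-25703810, minus strand) had the highest level of the methyltransferases listed. Its values were 5.64 and 7.65 FPKM in NSN and 10.3 and 9.52 in SN, from 1469, 2052, 2637 and 2565 read pairs, the groups did not overlap, and NSN replicate 1 was again the lowest library. The means were 6.65 ± 1.43 and 9.92 ± 0.566 (SD, n = 2), a log2 fold change of 0.56 (SE 0.158) that did not pass (limma, adjusted p = 0.0735). Without NSN replicate 1 it was 0.35 (limma, adjusted p = 0.231), and without NSN replicate 2 it was 0.76 and passed (limma, adjusted p = 0.0182). After median scaling it was 0.41 (limma, adjusted p = 0.132), a gene length correction brought it to 0.26, and over 20 alternatives it ranged from 0.26 to 0.76, with 4 adjusted p-values under 0.05. Predicted genes, Gm42585 and Gm71748, share 16.9% of its exonic bases.

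Its closest relative, Kmt2d (ENSMUSG00000048154.18; chromosome 15, 98729550-98769085, minus strand), was level, with 1.34 and 1.26 FPKM in NSN and 1.36 and 1.33 in SN from 449 to 476 read pairs. The log2 fold change was 0.03 (SE 0.157; limma, adjusted p = 0.900), and it turned negative under the scaling alternatives. Kmt2c thus exceeded Kmt2d by 4.20 and 6.06 times in NSN and by 7.60 and 7.14 times in SN, a log2 difference of 0.55 (exact permutation p = 0.333, n = 2 per group) that was 0.28 without NSN replicate 1 and 0.81 without NSN replicate 2.

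Kmt2b (ENSMUSG00000006307.18; chromosome 7, 30268283-30288414, minus strand), which is known for H3K4 trimethylation in the growing oocyte, was measured at 0.853 and 1.21 FPKM in NSN and 0.939 and 1.08 in SN. The SN values fell between the NSN values, and the difference was -0.01 (SE 0.192; limma, adjusted p = 0.971) from 126 to 184 read pairs. The spread within NSN was wider than the difference between the configurations.

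The SETD1 genes were the lowest of the list. Setd1a (ENSMUSG00000042308.15; chromosome 7, 127375842-127399294, plus strand) had 0.556 and 0.591 FPKM in NSN and 0.567 and 0.765 in SN from 64 to 91 read pairs, with overlapping groups and a difference of 0.11 (SE 0.189; limma, adjusted p = 0.710). Its value is uncertain, since 52.0% of its exonic bases are shared with other annotated genes. Setd1b (ENSMUSG00000038384.17; chromosome 5, 123280256-123306692, plus strand) had 0.441 and 0.410 FPKM in NSN and 0.344 and 0.245 in SN, from 68, 65, 52 and 39 read pairs. Both SN values were below both NSN values, but the mean was under the filter of 0.5 and was not tested. With all listed genes in the fit the difference was -0.22 (limma, adjusted p = 0.383), and it was -0.13 without SN replicate 2 and -0.425 with a pseudocount of 0.1. Setd1a exceeded Setd1b by 1.26 and 1.44 times in NSN and by 1.65 and 3.13 times in SN, a log2 difference of 0.75 that was 0.29 without SN replicate 2 and 1.21 without SN replicate 1.

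Cxxc1 (ENSMUSG00000024560.9), whose product is the CpG-binding subunit of the SETD1 complexes, had 1.89 and 2.09 FPKM in NSN and 2.24 and 1.87 in SN. The groups overlapped, and the difference was 0.03 (SE 0.159; limma, adjusted p = 0.903). Its level was above that of either SETD1 gene in every library.

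The order of the levels was the same in both configurations and ran from Kdm1b through Kmt2c, Kdm1a, Cxxc1, Kmt2d, Kmt2b, Kdm5b and Setd1a to Setd1b. Kmt2b and Kdm5b overlapped in both groups, and Kdm1b and Kmt2c, which were far apart in NSN (means of 25.9 and 6.65 FPKM), overlapped in SN (12.8 and 9.92). Kmt2c accounted for 66.3 ± 3.48% of the summed FPKM of the 5 methyltransferase genes in NSN and 74.9 ± 1.93% in SN (SD, n = 2). The parts of the other 4 were smaller in SN, with means of 10.3% and 7.65% for Kmt2b, 13.3% and 10.2% for Kmt2d, 5.80% and 5.05% for Setd1a and 4.34% and 2.22% for Setd1b. The methyltransferase sum was 8.83 and 11.1 FPKM in NSN and 13.5 and 12.9 in SN. The demethylase sum was 32.2 and 29.8 in NSN and 23.9 and 17.8 in SN. In every library the demethylase sum was the larger. The ratio of the methyltransferase to the demethylase sum was 0.274 and 0.373 in NSN and 0.565 and 0.727 in SN. This is a log2 difference of 1.003 (exact permutation p = 0.333, n = 2 per group), in which Kdm1b on the one side and Kmt2c on the other hold most of the FPKM. Neither sum holds Kmt2a or the other methyltransferase and demethylase genes described below. The other methyltransferases summed to 15.1 and 15 FPKM in NSN and 16.6 and 15.9 in SN. The other demethylases summed to 15 and 15.9 FPKM in NSN and 18.1 and 18.6 in SN. A ratio that includes them was not computed.

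The other genes of H3K4 methylation were taken from 6 lists with 54 names, of which 49 were listed and 42 tested. Of the 42, 8 rose and 0 fell (limma), beside 5.95% and 1.98% of all genes. An unadjusted p under 0.05 was reached by 23 of the 42, beside 3695 of the 11672 genes tested (limma). The median log2 fold change of the 42 was 0.27, against 0.14 over all genes. The 8 calls were not stable, as 2 (Psip1 and Kdm6a) were called after median scaling, 9 genes without NSN replicate 2, and 0 without NSN replicate 1, without SN replicate 1 or without SN replicate 2 (16, 19 and 14 unadjusted p-values under 0.05, limma). The calls came from complex subunits outside the shared core, partners of KDM1A and proteins that read H3K4 methylation.

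**Figure D3:**
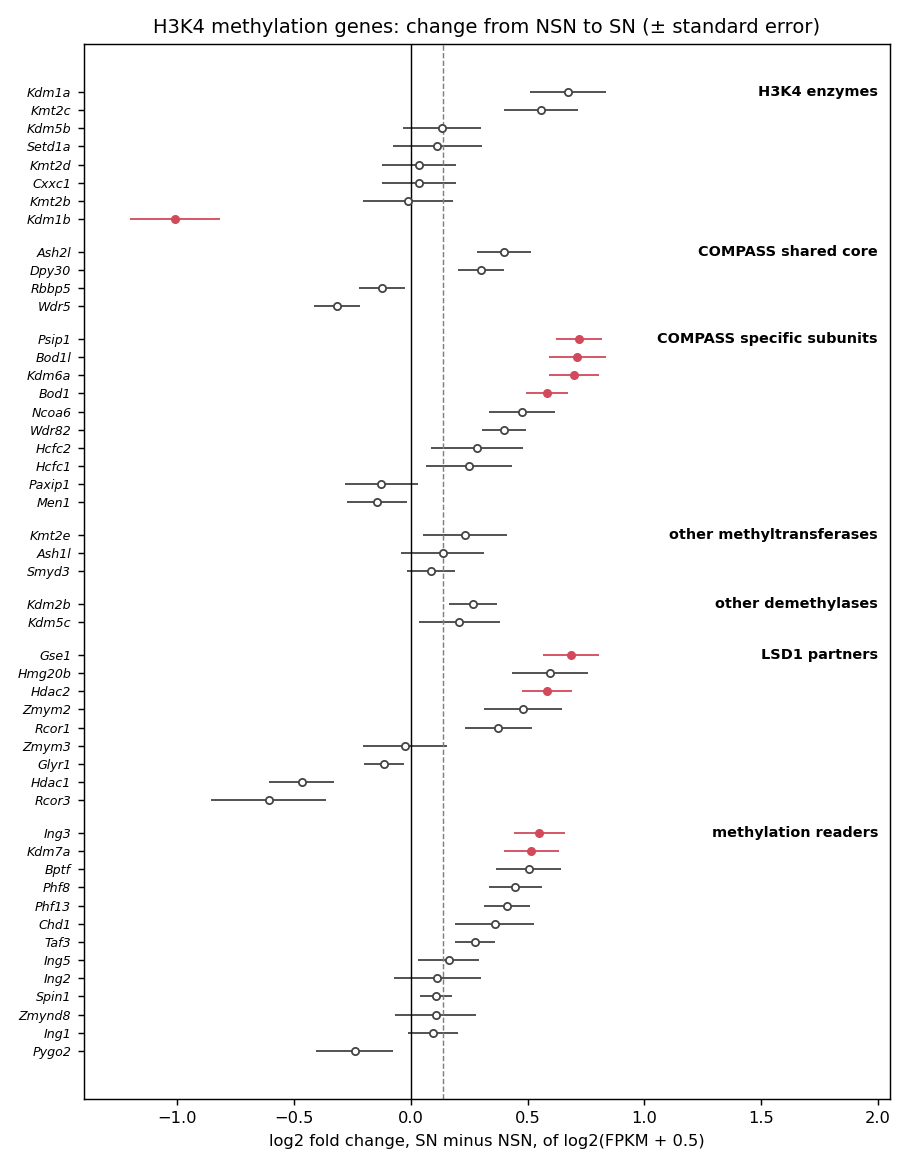
Log2 fold change (SN minus NSN of log2(FPKM + 0.5), with its standard error) of the 8 tested H3K4 enzyme genes and of genes tested in the 6 other lists. Filled red points were called by limma, and the dashed line is the median of all genes (0.14). Kdm1b is the only called gene on the left, and the 8 called on the right lie between 0.52 and 0.72.

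None of the 4 core subunits was called (limma, 3 unadjusted p-values under 0.05), and their means lay higher in SN for 2 and lower for 2. Wdr5, whose product holds the core on the enzyme, had 36.2 and 35.5 FPKM in NSN and 30.7 and 26.7 in SN (limma, adjusted p = 0.0890). Rbbp5 had 21.9 and 19.9, and 19.2 and 19.0 (limma, adjusted p = 0.411). Higher in both SN libraries were Ash2l, with 7.21 and 6.82 against 8.96 and 9.88 (limma, adjusted p = 0.0757), and Dpy30, with 93.8 and 103 against 113 and 130 (limma, adjusted p = 0.101). The means of the 4 core genes were above those of the KMT2 and SETD1 methyltransferase genes in NSN. In SN this held for all but Ash2l, with 9.42 FPKM against 9.92 for Kmt2c. Within NSN replicate 2, Ash2l was below Kmt2c, at 6.82 against 7.65 FPKM.

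Of the 10 tested complex subunits outside the shared core, 4 rose, beside 5.95% of all genes. Psip1, which encodes the chromatin tether LEDGF of the complexes with menin, rose from 27.5 and 29.7 to 50.2 and 44.7 FPKM, a log2 fold change of 0.72 (SE 0.098; limma, adjusted p = 0.0364), and had the highest mean of its list. Exons of Snapc3 share 50.6% of its exonic bases, and Snapc3 itself had means of 14.0 and 15.6 FPKM (limma, adjusted p = 0.462). Bod1l, which encodes a partner of SETD1A, rose from 5.23 and 5.95 to 9.78 and 9.16 FPKM, or by 0.71 (limma, adjusted p = 0.0375). Kdm6a encodes the H3K27 demethylase UTX that sits in the KMT2C and KMT2D complexes. It rose from 9.42 and 10.6 to 16.9 and 16.2 FPKM, or by 0.70 (limma, adjusted p = 0.0364). The fourth was Bod1, the paralogue of Bod1l (0.58; limma, adjusted p = 0.0364). After median scaling the fold changes of Bod1l and Bod1 were 0.57 and 0.43 (limma, adjusted p = 0.0566 and 0.0576).

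Of the 10 tested partners of KDM1A or KDM1B, 2 rose, beside 5.95% of all genes. Gse1, a component of KDM1A-HDAC complexes, rose from 4.32 and 4.64 to 7.73 and 7.29 FPKM, or by 0.69 on the log2 scale (limma, adjusted p = 0.0375). The deacetylase gene Hdac2 rose from 8.37 and 8.63 to 13.6 and 12.3 FPKM, or by 0.58 (limma, adjusted p = 0.0393). After median scaling the adjusted p of Gse1 and Hdac2 was 0.0583 and 0.0667 (limma).

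Proteins that bind methylated H3K4 made up the list of 13 tested readers, of which 2 rose, beside 5.95% of all genes. The acetyltransferase subunit gene Ing3 rose from 17.7 and 21.0 to 28.4 and 28.5 FPKM, or by 0.55 on the log2 scale (limma, adjusted p = 0.0427). Kdm7a, a demethylase of other lysines with an H3K4-reading PHD finger, rose from 5.68 and 6.25 to 8.98 and 8.50, or by 0.52 (limma, adjusted p = 0.0482). After median scaling neither was called (limma, adjusted p = 0.0682 and 0.0897). Spin1, the reader with by far the highest level, had 3880 and 3780 FPKM in NSN and 4010 and 4250 in SN (limma, adjusted p = 0.315).

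None of the 3 genes tested in the list of other methyltransferases and the 2 in that of other demethylases was called (limma, 0 and 1 unadjusted p-values under 0.05). Smyd3 had the highest mean of the former, with 12.7 and 11.7 FPKM in NSN and 13.2 and 12.7 in SN (limma, adjusted p = 0.597). Kdm2b, the highest of the latter, had 12.8 and 14.1, and 16.1 and 16.5 (limma, adjusted p = 0.135). These lists were set by name, and activity on H3K4 is not established for every gene in them.

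**Figure D4:**
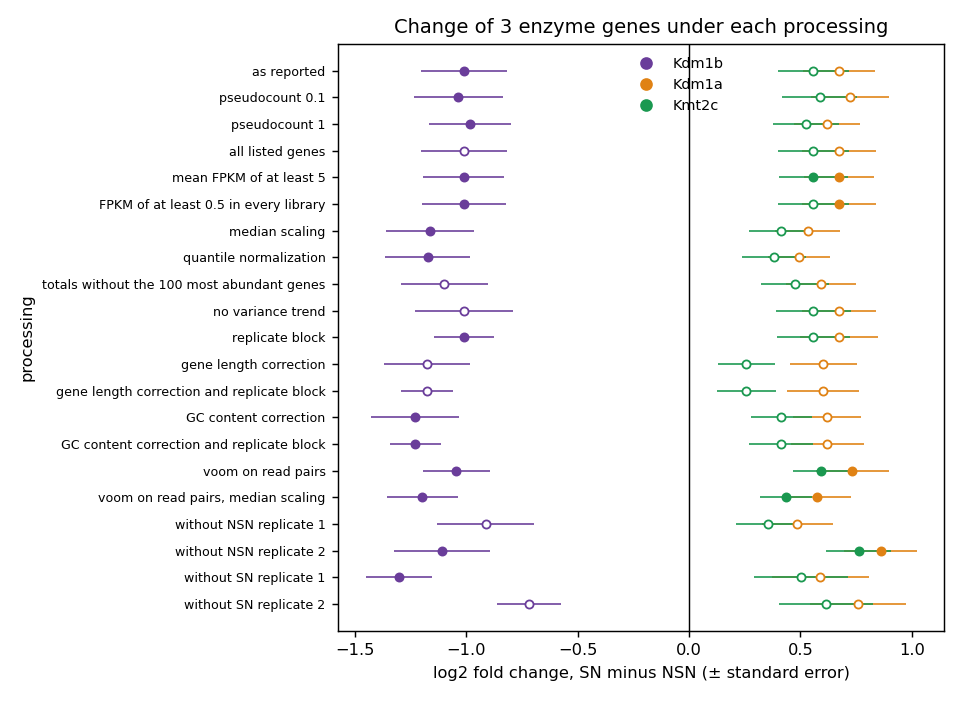
Log2 fold change of Kdm1b, Kdm1a and Kmt2c (SN minus NSN, with its standard error) as reported and under each of 20 alternatives. Filled points have a limma adjusted p under 0.05. Kdm1b stays between -1.30 and -0.72, and Kdm1a (0.49 to 0.86) and Kmt2c (0.26 to 0.76) stay above 0, whereas the calls of all of them come and go.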

How the data were processed

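Polyadenylated RNA of 15 GV oocytes per library was measured by Smart-seq2 in 2 NSN and 2 SN libraries. The authors trimmed reads with Trim Galore 0.6.10 (version from the submitters' processing notes) and aligned them to GRCm39 by HISAT2. They counted pairs on GENCODE exons per gene by featureCounts (primary alignments, no strand) and deposited FPKM made with their own script. They ran DESeq2 on counts, which were not used here. Whole read pairs were recovered from the FPKM through 5 mitochondrial tRNA genes of known length for 99.89% of the 16861 genes (within 0.0001 of a whole number). Depth limits precision, and read pairs cover counting error only, since PCR reads are not independent molecules. For Cxxc1 the recovered number is known only up to a common whole factor, and none is given.

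Here log2(FPKM + 0.5) of genes whose mean FPKM reached 0.5 was fitted on group only in R 4.3.3 by limma 3.58.1 (two-sided, eBayes with a variance trend). The fold change on this scale understates the change of low genes. Ratios were compared by exact permutation (scipy 1.17.1), two-sided. Positions and overlaps came from a later GENCODE release on GRCm39. It holds 9021 exonic bases for Kdm1b, 25774 for Kmt2c and 6836 for Setd1a. The lengths recovered from the deposited values were 4987, 14967 and 6612, so the overlap shares may differ for the bases counted. The members and lists were chosen with earlier results of these data known. Named were all members, the 4 core subunits, up to 3 called genes of each other list by size of change, and the gene with the highest mean of each list, markers included, of which 1 is not reported here. Bod1 was named outside this rule, as were the genes whose exons overlap Kdm1b, Kdm1a, Kmt2c and Psip1, after their values were seen. Of the 54 other names, Pagr1a, Setd7, Smyd1, Riox1 and Ing4 were not analysed here. Same-numbered replicates did not deviate together (correlation -0.07).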

Additional observations from a re-analysis of the deposited data

How the results depend on the processing

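The number of genes called (926) became 0 with the filter removed and 0 with no variance trend (limma, 4092 and 3449 unadjusted p-values under 0.05), 1496 for means of 5 FPKM or more, 257 after median scaling, 230 after quantile normalisation, 248 with totals that left out the 100 most abundant genes (reduced totals), 422 with the replicate block, 143 with a gene length correction, 0 with that and the replicate block (2788 unadjusted), 222 with a GC correction, 65 with that and the replicate block, 2297 with voom on read pairs and 1707 with voom after median scaling. Leaving out a library gave 0 to 1685. The count among the enzyme genes (1, Kdm1b) became 0 with the filter removed, reduced totals, no variance trend and the length correction with or without the replicate block (2 or 3 unadjusted p-values under 0.05, limma), 2 where every library had to reach 0.5, 3 for means of 5 FPKM or more and 3 with either voom, and 0 to 3 with a library left out. The replicate block alone kept the call of Kdm1b, and the replicate numbers were not taken as pairs. Among the other H3K4 genes the 8 calls became 0 with the filter removed, no variance trend, and the length or GC correction with the replicate block (24, 21, 13 and 17 unadjusted, limma), 1 with the length or GC correction or quantile normalisation, 2 after median scaling, 3 with the replicate block and 3 with reduced totals, 13 for means of 5 FPKM or more, 21 with voom and 13 with voom after median scaling, and 0 to 9 with a library left out. The median of the enzyme genes (0.07) was 0.558 for means of 5 FPKM or more, -0.024, -0.011 and 0.017 after median scaling, quantile normalisation and reduced totals, -0.116 with the length correction with or without the replicate block, 0.003 with the GC correction with or without it, 0.126 and -0.028 with voom, and 0.069 to 0.143 with a library left out. Counted in read pairs instead of per length, the shares of a class in NSN and SN were 6.14% and 4.5% for Kmt2b, 69.9% and 77.8% for Kmt2c, 18.5% and 14.0% for Kmt2d, 2.70% and 2.32% for Setd1a, 2.70% and 1.36% for Setd1b, 8.79% and 23.1% for Kdm1a, 85.9% and 66.9% for Kdm1b, and 5.35% and 10% for Kdm5b. Kmt2d was -0.078, -0.062 and -0.030 under the 3 scalings, -0.278 with the length correction, -0.018 with the GC correction (each with or without the replicate block) and -0.105 with voom after median scaling. Cxxc1 was -0.090, -0.091 and -0.037 under the scalings, -0.078 with the length correction (with or without the replicate block), -0.117 with voom after median scaling and -0.071 to 0.139 with a library left out. With the length correction, with or without the replicate block, Setd1a was -0.106, Kdm5b -0.126 and Kmt2b -0.263. With a library left out, Setd1a ranged from -0.009 to 0.237 and Kmt2b from -0.182 to 0.157. Kdm1b, Kdm1a and Kmt2c kept their direction under all 20 alternatives. The causes of these changes were not tested. A fit without a library assumes that the lone library of a group varies like the others. Leaving out a library for the shares was added after the data were examined, and with 2 libraries a group it only returns the values of the single libraries.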
